A study of Mus musculus with 13 samples.

Results

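The genes described here are enzymes that burn fatty acids and handle ketone bodies in liver: Cpt1a, Acadvl, Acadl, Acadm, Acads, Ehhadh and Bdh1. Their methylation was read from the authors' deposited table, which compares the livers of mice on 2 diets site by site. Of the 23904 sites in that table, 15 carry the exact symbol of 1 of these 7 genes. Bdh1 had 7 sites, Cpt1a, Acadm and Ehhadh had 2 each, and Acads and Acadl had 1 each. Acadvl had no site in the table.

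Liver DNA came from 7 mice fed low fat/low sucrose (LF/LS below) and 6 fed high fat/high sucrose (HF/HS below). The labels give no strain, genotype, sex, age or length of feeding. Sample titles start with G1 or G2, whose meaning is not stated. LF/LS held 4 mice with G1 and 3 with G2, and HF/HS held 3 of each. The assay was bisulfite sequencing of captured DNA, in which the share of unconverted reads at a cytosine gives its methylation. The table lists only sites that passed the authors' limits, with the largest q at 0.0100 and the smallest absolute difference at 5.003 percentage points, and gives 1 average per diet. A site counted as higher or lower below is therefore one that the authors' test called. Depth per site is unknown, no value per mouse was analysed here, and no SD, n or test of the spread between mice can be given. Liver tissue was bulk, so a change in the mix of cell types and a change within 1 cell type cannot be told apart.

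Long-chain fatty acids enter mitochondria as carnitine esters and are shortened there by beta-oxidation, whose opening step is run by acyl-CoA dehydrogenases of differing chain length preference. Peroxisomes shorten very long chains and dicarboxylic acids by a parallel route. In the fasted liver the acetyl-CoA made this way is turned into ketone bodies, which other tissues burn, and many of these genes are switched on by the nuclear receptor PPAR alpha. Methylation of CpG dinucleotides near a start is commonly low in expressed genes, but expression was not measured here.

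Of the 15 sites, 7 were higher in HF/HS and 8 were lower. Across all 23904 listed sites 57.6% were higher and 42.4% were lower. The listed differences of the 15 ran from -24.7 to 19.1 points in the authors' deposited table, with a median of -9.33 points against 7.41 over all listed sites. As no listed difference is near 0, that median follows the majority of 1 site, and with the 2 adjacent Bdh1 sites described below counted once, 7 were higher and 7 lower and the median was -2.04 points. The median size of a difference, without its sign, was 13.8 points for these genes and 11.7 points for all listed sites in the authors' deposited table. Both Cpt1a sites and both Ehhadh sites were higher, the Acads and Acadl sites were lower, Acadm had 1 of each, and Bdh1 had 2 higher and 5 lower.

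**Figure D1:**
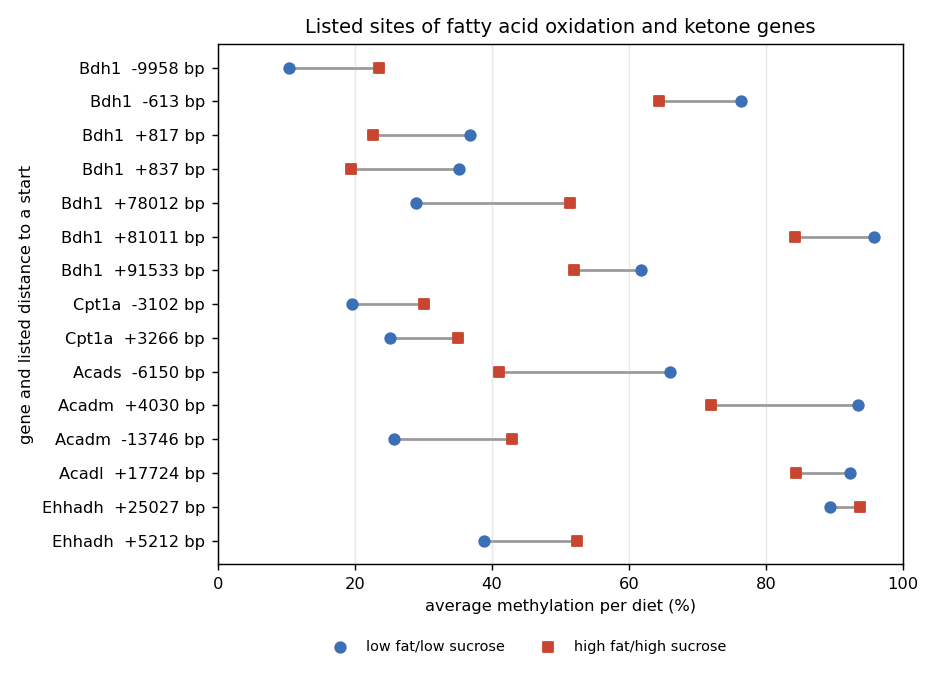
Average methylation (x axis, percent) of each of the 15 listed sites in low fat/low sucrose mice (blue circles) and high fat/high sucrose mice (red squares), with the gene and the listed distance to a start on the y axis and a grey line joining the 2 averages. The table gives no spread between mice, so there are no error bars; both sites of Cpt1a and of Ehhadh move right, 5 of 7 Bdh1 sites move left, and the Acads site spans 66.1 to 41.1%.

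Cpt1a encodes the liver form of carnitine palmitoyltransferase, which makes the carnitine ester and sets the rate of fatty acid entry into mitochondria. Its 2 sites lie on chromosome 19 (mm9), either side of the start and 6366 bp apart. The upstream site, at 3320199 and 3102 bp before the start, outside promoter, exon and intron, had averages of 19.6% in LF/LS and 30.1% in HF/HS in the authors' deposited table (listed difference 10.7 points, q = 0.00243). The downstream site, at 3326565 in an intron and a CpG island shore 3266 bp past the start, had averages of 25.2% and 35.04% in the authors' deposited table (listed difference 13.4 points, q = 0.00240). The Cpt1a sites thus began at similar low levels and rose by similar amounts. No site of the table falls inside the Cpt1a promoter window that they flank. That window, taken from RefSeq on another build (GRCm38.p6, chr19:3323051-3323350, plus strand, 250 bases before to 50 after the start), is shown because it is the CpG-rich stretch between the rises, with each CG in capitals.
Cpt1a promoter: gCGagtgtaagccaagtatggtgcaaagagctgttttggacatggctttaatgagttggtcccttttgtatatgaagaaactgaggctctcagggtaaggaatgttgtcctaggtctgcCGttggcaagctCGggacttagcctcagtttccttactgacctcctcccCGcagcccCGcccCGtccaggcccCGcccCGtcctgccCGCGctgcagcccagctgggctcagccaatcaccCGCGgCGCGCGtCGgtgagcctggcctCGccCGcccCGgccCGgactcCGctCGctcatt
It holds 22 CpG dinucleotides, and 23.1% of the 32851 RefSeq promoter windows of this length hold as many or more.

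The acyl-CoA dehydrogenases remove the first pair of hydrogens from the acyl chain, each acting best on a range of chain lengths. Acadvl, for very long chains, was not among the listed sites. Acadl, for long chains, had 1 site in an intron on chromosome 1 at 66892118, 17724 bp past its start. Its averages were 92.3% in LF/LS and 84.3% in HF/HS in the authors' deposited table (listed difference -9.33 points, q = 0.00735). This was the smallest fall among the 8 lower sites, at a heavily methylated cytosine, and the nearest other listed site lay 232308 bp away.

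Acadm, for medium chains and the enzyme missing in the most common inherited defect of fatty acid oxidation, had 2 sites on chromosome 3 that went in opposite directions. The intronic site at 153603367, 4030 bp past the start, had averages of 93.5% in LF/LS and 72.1% in HF/HS in the authors' deposited table (listed difference -17.1 points, q = 0.000108). The upstream site at 153621141, 13746 bp before the start and in no gene feature, had averages of 25.7% and 42.9% in the authors' deposited table (listed difference 18.4 points, q = 8.29e-05). These 2 Acadm cytosines stood 67.8 points apart in LF/LS and 29.1 points apart in HF/HS, a narrower gap in HF/HS. A site 10259 bp further out, named for the choline transporter-like gene Slc44a5, went down instead, with averages of 92.4% and 78.6% in the authors' deposited table. On the other side, a site at 153574584 named for the small nucleolar RNA gene Snord45c was higher, with averages of 6.51% and 12.1% in the authors' deposited table (listed difference 8.09 points, q = 0.00272). Of the 2022 genes with exactly 2 listed sites, 37.9% had 1 site each way, as Acadm did, and 36.6% had both higher, as Cpt1a and Ehhadh did.

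Acads, for short chains, had a single site and the largest difference of the 15. On chromosome 5 at 115575471, its averages were 66.1% in LF/LS and 41.1% in HF/HS in the authors' deposited table (listed difference -24.7 points, q = 2.70e-05). Ordered by size, it was number 104 of the 10132 listed falls. The Acads site lies 6150 bp before the start yet carries an exon flag and a shore flag, so the exon belongs to a transcript that starts elsewhere. In RefSeq gene order the next protein-coding genes on that side of Acads are Unc119b and Mlec, and the exon's own gene is not named in the table. The nearest other listed site, 35826 bp away and named for Mlec, a malectin gene of the endoplasmic reticulum, was also lower, with averages of 55.0% and 45.3% in the authors' deposited table.

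Ehhadh encodes the peroxisomal bifunctional enzyme, which hydrates and then oxidises the chain, and it is a well-known PPAR alpha target. Its 2 sites on chromosome 16 were both higher, by different amounts. The intronic site at 21782696, 5212 bp past the start, had averages of 38.9% in LF/LS and 52.4% in HF/HS in the authors' deposited table (listed difference 13.8 points, q = 0.00802). The exonic site at 21762881, 25027 bp past the start, had averages of 89.4% and 93.7% in the authors' deposited table (listed difference 5.25 points, q = 0.00826). That exonic site was the only one of the 15 above 50% that rose, and its difference lay close to the smallest the table lists. The 4 other listed sites within 50000 bp of an Ehhadh site carry no gene symbol and were also higher, with listed differences of 7.44, 7.74, 11.97 and 10.2 points in the authors' deposited table.

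Bdh1 encodes the mitochondrial beta-hydroxybutyrate dehydrogenase, which interconverts the ketone bodies acetoacetate and beta-hydroxybutyrate. It has several starts, and the table measures distance from 3 of them, at 31422383, 31428839 and 31429487 on the plus strand of chromosome 16. The RefSeq promoter windows of Bdh1 number 2 and are 6456 bp apart, the same spacing as the earliest and the middle listed starts. They are shown because the promoter sites that fell lie nearer to the start of the second than to that of the first. Of these sites, those at 31430304 and 31430324 are listed against the last start, 31429487, which neither window matches by that spacing. Each CG is in capitals and window coordinates are on GRCm38.p6, plus strand.
Bdh1 upstream promoter, chr16:31422047-31422346: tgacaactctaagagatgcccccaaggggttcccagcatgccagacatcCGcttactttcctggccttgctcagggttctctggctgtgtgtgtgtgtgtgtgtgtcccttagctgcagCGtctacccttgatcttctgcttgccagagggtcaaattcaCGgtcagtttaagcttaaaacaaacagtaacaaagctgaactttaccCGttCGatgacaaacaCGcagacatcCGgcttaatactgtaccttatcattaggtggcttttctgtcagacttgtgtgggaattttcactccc
Bdh1 second promoter, chr16:31428503-31428802: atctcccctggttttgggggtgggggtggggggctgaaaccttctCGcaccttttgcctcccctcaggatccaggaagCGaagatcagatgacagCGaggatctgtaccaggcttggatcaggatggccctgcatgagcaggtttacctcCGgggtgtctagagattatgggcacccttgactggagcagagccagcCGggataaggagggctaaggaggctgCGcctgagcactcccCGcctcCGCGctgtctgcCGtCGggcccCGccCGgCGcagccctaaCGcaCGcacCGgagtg
The upstream window holds 7 CpG dinucleotides, equal to the median of 7 over all windows. The second holds 17, and 31.4% of all windows hold as many or more.

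All 3 Bdh1 sites with a promoter flag were lower in HF/HS, and all 3 also carry shore and intron flags. The site at 31428226, 613 bp before the middle start, had averages of 76.4% in LF/LS and 64.4% in HF/HS in the authors' deposited table (listed difference -12.4 points, q = 0.00417). The site at 31430304, 817 bp past the last start, had averages of 36.8% and 22.7% in the authors' deposited table (listed difference -14.8 points, q = 0.00212). Its neighbour 20 bp on, at 31430324, had averages of 35.2% and 19.5% in the authors' deposited table (listed difference -15.2 points, q = 0.00474). The pair 20 bp apart moved together and is close to a single observation: among 3313 neighbouring listed pairs within 100 bp, 2.93% went in opposite directions. Among all 4183 listed promoter sites 34.8% were lower, and among the 929 with promoter, shore and intron flags 32.8% were. The Bdh1 promoter sites were in the less frequent direction, and with 3 sites at 1 gene no test of that is given.

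The other 4 Bdh1 sites lie far from a start and outside every promoter, exon and intron. Upstream at 31412425, 9958 bp before the earliest start, the averages were 10.4% in LF/LS and 23.6% in HF/HS in the authors' deposited table (listed difference 14.1 points, q = 0.000482). This was the lowest LF/LS average of the 15 sites. At 31507499, 78012 bp past the last start, the averages were 28.9% and 51.5% in the authors' deposited table (listed difference 19.1 points, q = 0.000162), the largest rise of the 15. Only 2999 bp further, at 31510498, the averages were 95.8% and 84.2% in the authors' deposited table (listed difference -12.2 points, q = 2.16e-05). Of 1257 neighbouring listed pairs that were over 1000 and up to 3000 bp apart, 41.6% had opposite directions, as this pair did. The last site, at 31521020 and 91533 bp past the start, had averages of 61.7% and 51.9% in the authors' deposited table (listed difference -13.2 points, q = 0.00423).

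The 3 downstream sites carry the Bdh1 symbol without an exon or intron flag and may lie outside the gene. In RefSeq gene order the next protein-coding genes on that side are Gm536 and Dlg1. On the other side lies Apod, and its 2 listed sites within 50000 bp of a Bdh1 site were both lower, their listed differences being -10.5 and -9.58 points in the authors' deposited table. Of the 150 genes with exactly 7 listed sites, 72.7% had sites both ways, as Bdh1 did, 35 had all higher and 6 had all lower.

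**Figure D2:**
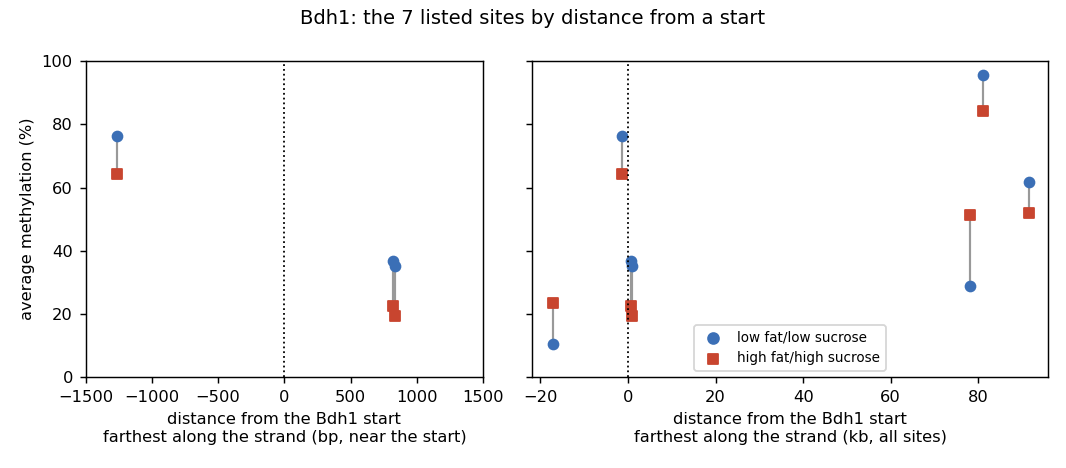
Average methylation (y axis, percent) of the 7 Bdh1 sites in low fat/low sucrose (blue circles) and high fat/high sucrose mice (red squares) against distance from the last listed Bdh1 start (dotted line), close to the start in bp on the left and over all sites in kb on the right. The 3 sites near the start fall, and the rises are at the site upstream of every start and at the site 78012 bp past the last start.

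Most sites of low methylation were higher in HF/HS and most of high methylation were lower. A site's level here is the mean of its 2 averages. Of the 8 sites under 50%, 6 were higher, against 78.5% of the 11970 listed sites at such levels. The 2 exceptions are the Bdh1 promoter sites 20 bp apart, at levels of 29.8% and 27.3%. Of the 7 sites at 50% or more, 6 were lower, against 63.3% of the 11934 listed sites at such levels, and the exception is the Ehhadh exon site. In all, 12 of the 15 sites (80.0%) had an HF/HS average nearer to 50% than the LF/LS average, as did 70.9% of all listed sites. By the definition of level this restates the rises under 50% and the falls at 50% or more, and is no separate result. The LF/LS averages of the 15 sites had an SD of 30.4 points across sites and the HF/HS averages one of 24.0 points, and over all listed sites these were 31.9 and 27.9 points. Those SDs describe the spread over genomic sites in the authors' deposited table, not over mice.

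**Figure D3:**
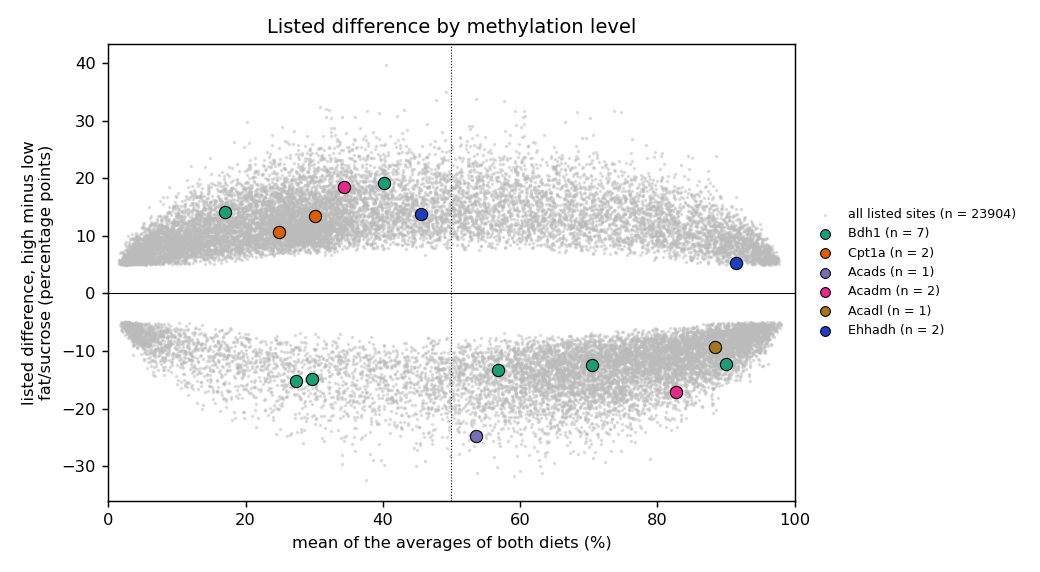
Listed methylation difference, high minus low fat/sucrose (y axis, percentage points), against the mean of the averages of both diets (x axis, percent) for all 23904 listed sites (grey) and the 15 sites of the named genes (coloured by gene), with the dotted line at 50%. The empty band around 0 is the authors' limit of about 5 points; left of the dotted line 6 of 8 coloured sites are above 0, and right of it 6 of 7 are below.

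By position the 15 sites were mostly single and away from islands. None lay in a CpG island, against 7.12% of all listed sites, and 5 lay in island shores (33.3%, against 20.5%). By gene feature, 3 had a promoter flag (20.0%, against 17.5%), 2 an exon flag (13.3%, against 13.3%), 7 an intron flag (46.7%, against 49.1%) and 6 no flag of these (40.0%, against 34.4%). The lower sites held all 3 promoter flags and 4 of the 5 shore flags. In 13 of 15 cases (86.7%) no other listed site lay within 1000 bp, against 61.8% of all listed sites, so the calls at these genes rest on cytosines with no listed neighbour except for the Bdh1 pair. Within 10000 bp of a start were 9 of the 15 sites (60.0%, against 52.4%).

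The promoters of all 7 genes were found in the RefSeq table, as 8 windows. The sequence AGGTCA, the core to which PPAR alpha and other nuclear receptors bind, was searched on both strands. It was present in 3 of the 8 windows, those of Cpt1a, Acadm and Acadvl, against 16.3% of all windows. The direct repeat AGGTCANAGGTCA, which contains AGGTCA, was in 0 of the 8 and in 0.0396% of all windows. A match of letters is not a binding site, and no listed site of these genes lay within the windows.

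Set within the wider pathway of 72 genes in 6 role groups, the 7 genes had a smaller share of rises, 7 of 15 sites, than the other genes. That smaller share rests largely on Bdh1, which had 2 higher and 5 lower. Cpt1a and Ehhadh had 2 of 2 higher each, Acadm 1 of 2, and Acads and Acadl 0 of 1 each. The other 65 genes had 83 listed sites at 33 genes, 57 higher and 26 lower (68.7% higher, against 57.6% of all listed sites), and their median difference was 9.29 points in the authors' deposited table. Methylation level also differed between the sets: 58 of those 83 sites had a mean level under 50%, against 8 of the 15. Of all listed sites under 50%, 78.5% were higher. Over all 72 genes, 64 of 98 sites were higher (65.3%), 21 genes had only higher sites, 7 only lower, 11 both and 33 no listed site. No test was made of these counts, since the genes were chosen with results known.

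Of the 13 sites at regulators of the pathway 12 were higher, against 57.6% of all listed sites. With sites within 1000 bp of each other joined, these were 8 of 9 clusters, and 11 of the 13 sites had a mean level under 50%, where 78.5% of all listed sites were higher. PPAR alpha's own gene Ppara (4 of 4 higher), the coactivator gene Ppargc1b (4 of 4), the related receptor gene Ppard (2 of 2) and the malonyl-CoA decarboxylase gene Mlycd (1 of 1) went up, and Ppargc1a had 1 of 2 higher. The site of smallest p was in a Ppara intron on chromosome 15 at 85572916, with averages of 22.8% in LF/LS and 36.0% in HF/HS in the authors' deposited table (listed difference 12.9 points, q = 0.000322).

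In the group that activates fatty acids and carries them in, to which Cpt1a belongs, 16 of 21 sites were higher, against 57.6% of all listed sites. Of the 21 sites 16, not all the same ones, had a mean level under 50%, where 78.5% of all listed sites were higher. Joined within 1000 bp, 10 of 14 clusters were higher, and a Slc27a2 cluster whose sites went both ways counted as lower. The rises were at the acyl-CoA synthetase genes Acsl1 (5 of 5), Acsl5 (4 of 4) and Acsl4 (1 of 2), the transporter Slc27a2 (3 of 4), Cpt1a (2 of 2) and the inner-membrane partner Cpt2 (1 of 1). The carnitine acetyltransferase gene Crat (0 of 2) and the carnitine importer Slc22a5 (0 of 1) had only falls. The smallest p was at an Acsl5 site on chromosome 19 at 55325779, 2080 bp before the start, with averages of 44.5% and 62.9% in the authors' deposited table (listed difference 18.4 points, q = 9.30e-06).

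Among the dehydrogenases and the electron transfer flavoprotein that takes their electrons, 6 of 9 sites were higher, against 57.6% of all listed sites. All 3 falls were at Acads, Acadm and Acadl. The split followed methylation level: the falls were at mean levels of 53.6, 82.8 and 88.3%, and the 6 rises were all under 50%. Of all listed sites, 78.5% of those under 50% were higher and 63.3% of those at 50% or more were lower. The genes outside the 7 had rises only: the flavoprotein subunits Etfa (3 of 3) and Etfb (1 of 1), and Acad11 (1 of 1), whose intronic site on chromosome 9 at 103984795 had averages of 24.8% and 42.0% in the authors' deposited table (listed difference 15.4 points, q = 0.000300). The smallest p of this group was that of the Acads site given above. For the later mitochondrial steps 4 of 8 sites were higher, against 57.6% of all listed sites. Joined within 1000 bp, 2 of 6 clusters were higher, and 5 of the 8 sites had a mean level under 50%. Hadh, the dehydrogenase of the third step, had 2 of 5 higher, the thiolase gene Acaa2 had 2 of 2 and the isomerase gene Eci2 had 0 of 1. The smallest p was at an Acaa2 intron site, with averages of 20.01% and 29.2% in the authors' deposited table (listed difference 9.29 points, q = 0.000898).

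In peroxisomal and omega oxidation, the group of Ehhadh, 15 of 22 sites were higher, against 57.6% of all listed sites. Joined within 1000 bp, 13 of 16 clusters were higher, including an Acaa1b cluster whose sites went both ways. Of the 22 sites 14 had a mean level under 50%, where 78.5% of all listed sites were higher. All sites rose at Ehhadh (2 of 2), Phyh (3 of 3), Crot (2 of 2), Acot8 (2 of 2), Acaa1a (1 of 1) and the peroxisomal transporter Abcd3 (1 of 1), while Acox2 had 1 of 2 higher, the thiolase gene Acaa1b 3 of 8 and Abcd2 0 of 1. Acaa1a and Acaa1b are near copies of each other, so reads may be placed on the wrong gene and their sites are uncertain. The smallest p was in an intron of the thioesterase gene Acot8 on chromosome 2 at 164628848, with averages of 10.8% and 30.3% in the authors' deposited table (listed difference 17.2 points, q = 5.68e-06).

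Ketone body genes, the group of Bdh1, had 11 of 25 sites higher and 14 lower, and their median difference was -10.1 points in the authors' deposited table. Counted by site, this was the smallest share of rises among the 6 groups, against 57.6% of all listed sites. That rank depends on Bdh1, which holds 7 of the 25 sites, 2 higher and 5 lower. With sites within 1000 bp of each other joined, 9 of 19 clusters were higher, and the later mitochondrial steps had a smaller share, 2 of 6. Of the 25 sites 14 had a mean level under 50%. Besides Bdh1, falls were listed at the monocarboxylate carrier genes Slc16a6 (4 of 5 lower) and Slc16a1 (2 of 3 lower). Rises were listed at the cytosolic dehydrogenase gene Bdh2 (2 of 2), at the acetoacetyl-CoA synthetase gene Aacs (2 of 2) and at the thiolase gene Acat1 (2 of 3). Of genes other than Bdh1 the smallest p was at a Slc16a1 site on chromosome 3 at 104478479, 35890 bp from the start, with averages of 75.4% and 55.5% in the authors' deposited table (listed difference -22.9 points, q = 7.90e-05).

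**Figure D4:**
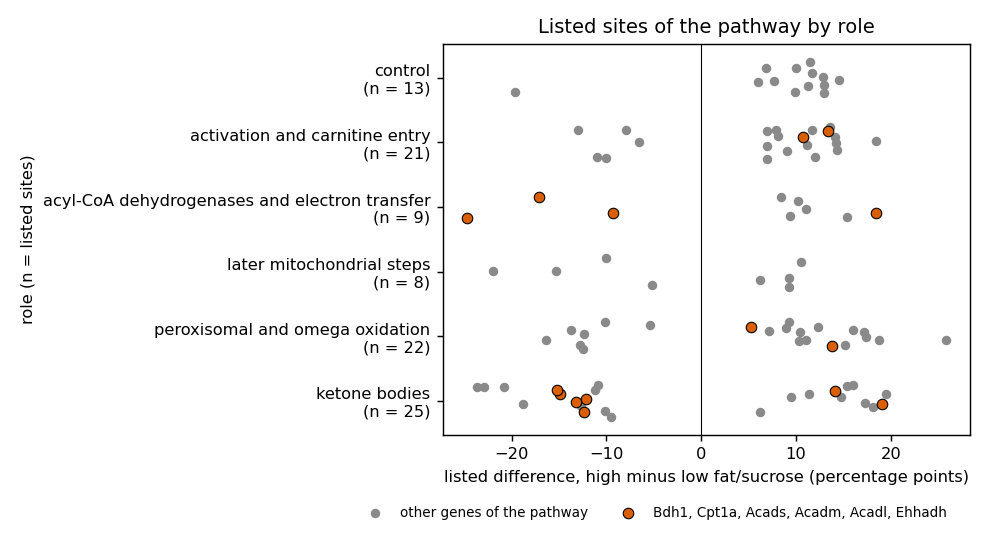
Listed methylation difference, high minus low fat/sucrose (x axis, percentage points), of the 98 listed sites of the pathway by role group (y axis, with the number of sites), each point 1 site; orange points are the 15 sites of Bdh1, Cpt1a, Acads, Acadm, Acadl and Ehhadh, and vertical scatter within a row has no meaning. The regulator row has 12 of 13 sites right of 0, and the ketone body row 11 of 25.

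Marker genes of liver cell types also had listed sites, and their counts are to be read against the 57.6% of all listed sites that were higher. Of 22 sites at 7 of 8 hepatocyte marker genes 21 were higher, and 21 of the 22 had a mean level under 50%, where 78.5% of all listed sites were higher. Of 30 endothelial sites 13 were higher (12 of the 30 under 50%), of 12 lymphocyte sites 4 (5 under 50%) and of 9 cholangiocyte sites 3 (4 under 50%). Joined within 1000 bp, 13 of 14 hepatocyte, 10 of 20 endothelial, 4 of 8 lymphocyte and 3 of 7 cholangiocyte clusters were higher. Genes within a list differed: 2 endothelial genes had only higher sites, 1 only lower and 4 both. Lymphocyte falls were mostly at Ptprc (0 of 6 higher), while Lck had 1 of 3 higher and Zap70 3 of 3. Differences between these lists were not tested. Stellate and fibroblast markers had 2 of 3 sites higher, and none of the 6 macrophage markers had a listed site. Differences ranged from -7.22 to 16.5 points at the hepatocyte and from -20.3 to 22.4 points at the endothelial markers in the authors' deposited table. Expression was not measured, so the tissue label could not be checked against marker RNA. What part cell mix or the title prefix has in the results at the fatty acid oxidation and ketone genes was not tested.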

How the data were processed

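DNA methylation was measured in 13 mouse livers by captured bisulfite sequencing. Bismark, methylKit, Trim Galore, CASAVA 1.8 and build mm9 are named in the submitters' processing notes. Their settings, the test and the q-value method are not stated there. The data are 1 table of the authors' comparison. Per the file headers, the authors deposited a p-value and a q-value, a methylation difference and an average percent methylation per diet, with a distance to a feature, read as a transcription start, and 5 kinds of flag. The sign of the difference is HF/HS minus LF/LS at every site.

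Sites were matched by exact symbol and counted with Python 3.11.15 and pandas 2.3.3. The counting code was tested on simulated data. Clusters joined sites within 1000 bp of each other. Directions were also compared over adjacent listed pairs up to 100 bp and over 1000 to 3000 bp apart, and other genes' sites were looked up within 50000 bp. No test was run, since values per mouse were not analysed here. RefSeq tables (GRCm38.p6) gave gene order and promoter windows only. Every listed site of the 7 genes is reported. The other genes of the pathway lists with a site are named, except some that are not reported here, and per role group the site of smallest p is given. The 7 genes, the pathway lists and the marker lists of 6 cell types (hepatocyte, endothelial, macrophage, lymphocyte, stellate and fibroblast, cholangiocyte) were chosen with earlier results of these data known. Alternatives were stricter difference and q limits, distance to a start, clusters, difference of averages and wider name matching.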

Additional observations from a re-analysis of the deposited data

How the results depend on the processing

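The 7 sites higher and 8 lower at the fatty acid oxidation and ketone genes became 3 and 3 at q under 0.001 and 4 and 5 within 10000 bp of a start. For the pathway, 64 and 34 became 19 and 8 at q under 0.001 and 39 and 22 within 10000 bp, as these limits keep fewer sites. The other 16 of 24 counts were within 1.5 times. All 15 listed differences had the same sign when taken between the averages, and the largest ratio between these measures was 1.36. Leaving out mice was not run. No paired analysis was run, as the labels name no pairs of mice and the table holds no column for single mice. Unknown coverage limits every average.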
